A study of Mus musculus with 4 samples.

Results

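Cluster 17 is 1 of the 23 numbered clusters into which the depositors of a single-nucleus RNA data set of mouse kidney cortex divided their nuclei, and its members were taken from that numbering alone. It held an inferred 471 of 26144 nuclei, 1.80% of the total, and came 18th of the 23 clusters in size. The markers of 2 neighbouring kidney segments were present together: those of the connecting tubule, and those of the principal cell, the sodium- and water-reabsorbing cell of the collecting duct. On both marker lists cluster 17 came second of the 23 clusters. It is therefore called by its number below and given no single cell type name.

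The nuclei came from 4 libraries, 1 for each genotype, all on the C57BL/6J strain. The mice were labelled Klf4deltaEC, in which Klf4, a zinc-finger transcription factor, is deleted in endothelial cells; Nos3-/-, which lacks endothelial nitric oxide synthase throughout; Klf4deltaECNos3-/-, which combines both; and Klf4flox/flox (called control), whose Klf4 alleles are floxed. The sources used here do not give the driver of the endothelial deletion, the ages of the mice or how many mice stand behind a library. Going by the series title, the study asked what less Klf4 in the endothelium does with Nos3 present and with Nos3 missing. With 1 library per genotype no difference between genotypes can be tested, so every difference below is one between individual libraries.

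The distal nephron runs from the distal convoluted tubule through the connecting tubule to the collecting duct, and the connecting tubule and the early collecting duct together form the aldosterone-sensitive stretch. There the hormone aldosterone acts through the mineralocorticoid receptor, and sodium enters through the epithelial sodium channel ENaC while potassium leaves through apical potassium channels. The connecting tubule also reabsorbs calcium under hormonal control, and principal cells take up water through aquaporins under vasopressin. Intercalated cells, which secrete acid or base, lie among both cell types.

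Cluster 17 took 129 nuclei from the library labelled Klf4deltaEC, 163 from the one labelled Nos3-/-, 70 from the one labelled Klf4deltaECNos3-/- and 109 from the control library. Its share of the library was 1.87% (1.57 to 2.22) in Klf4deltaEC, 2.33% (1.99 to 2.71) in Nos3-/-, 1.27% (0.995 to 1.61) in Klf4deltaECNos3-/- and 1.61% (1.32 to 1.94) in the control, with exact (Clopper-Pearson) 95% binomial intervals that cover counting error only. The Nos3-/- interval lay above those of Klf4deltaECNos3-/- and the control, and the other pairs of intervals overlapped. Taken over the nuclei of clusters 17, 11 and 8 together, cluster 17 made up 19.5% in Klf4deltaEC, 27.2% in Nos3-/- and 13.4% in Klf4deltaECNos3-/-, against 18.1% in the control. How the deposited clustering splits these clusters in each library was not tested.

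The depth behind each value differed by library. A unique molecular identifier (UMI) marks 1 RNA molecule. Median totals per nucleus in cluster 17 were 2755 UMIs in Klf4deltaEC, 1778 in Nos3-/-, 3595 in Klf4deltaECNos3-/- and 3171 in the control. The cluster's level equal to 3 UMIs, taken as the limit that a count of 0 allows, was 0.0857 per 10000 in Klf4deltaEC, 0.113 in Nos3-/-, 0.140 in Klf4deltaECNos3-/- and 0.0937 in the control. All levels below are means over nuclei of UMIs per 10000 UMIs, and ranges in brackets are 95% counting intervals. UMI levels are not per length, so a level is compared between clusters and libraries for 1 gene and not between genes.

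**Figure D1:**
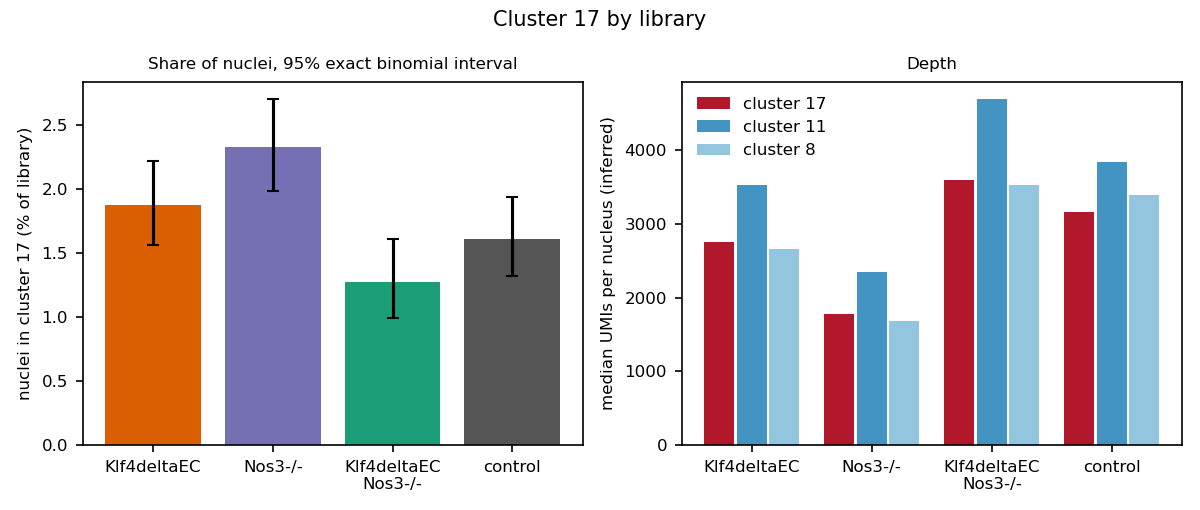
Left, bars give the percent of each library's nuclei in cluster 17, with exact 95% binomial intervals; right, bars give the inferred median UMIs per nucleus in clusters 17, 11 and 8. Klf4deltaECNos3-/- has the fewest cluster 17 nuclei (1.27%) and the deepest (3595 UMIs), and Nos3-/- the most (2.33%) and the shallowest (1778 UMIs).

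Both targeted genes were near absent from cluster 17: Klf4 reached at most 0.0234 and Nos3 at most 0.0236 per 10000 in any library, below the level of 3 UMIs. In cluster 10, which leads the endothelial markers, Klf4 stood at 0.779 in Klf4deltaEC and 0.824 in Klf4deltaECNos3-/-, against 0.621 in the control, and Nos3 at 1.52 in Nos3-/- and 2.07 in Klf4deltaECNos3-/-, against 1.26 in the control. So the labelled deletions did not show as lower levels of either gene, and all of these intervals overlapped those of the control. A genotype name therefore stands for a library labelled with it, here and below. Whether the counted part of each gene lies outside the deleted part, or a library holds another genotype than its label gives, cannot be told apart here. The proximal tubule marker sum in cluster 17 was 15.8 in Klf4deltaEC, 59.8 in Nos3-/-, 16.1 in Klf4deltaECNos3-/- and 16.6 in the control. The 13 mitochondrially encoded genes summed to 57.4 in Klf4deltaEC, 25.8 in Nos3-/-, 55.2 in Klf4deltaECNos3-/- and 68.5 in the control.

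The fixed marker lists placed cluster 17 between clusters 11 and 8. The 6 connecting tubule markers in the table summed to 177 per 10000 in cluster 17, against 671 in cluster 11, the highest, and 21.1 in cluster 8. The 10 principal cell markers summed to 26.9 in cluster 17, against 34.7 in cluster 8, the highest, and 11.7 in cluster 11. All 6 and 8 of the 10 reached 0.5 per 10000 in cluster 17. Slc8a1, at 162, made up most of the first sum, and Scnn1b, at 9.96, and Scnn1g, at 5.67, were the largest parts of the second. Ranked by the mean of scaled log2 levels, cluster 17 was also second on both lists. In each of the 4 libraries taken alone cluster 17 again came second on both lists.

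Most lists of other cells were low in cluster 17, with parietal epithelial markers the exception. Those 13 summed to 16.97 in cluster 17, rank 4 of the 23 clusters, against 39.3 in cluster 18, 38.1 in cluster 8 and 5.10 in cluster 11. Rbfox1 at 8.69 and Pax8 at 4.95 made up most of that sum, and Rbfox1 was highest in cluster 8, at 22.5. Ncam1 stood at 0.0369 in cluster 17, against 3.91 in cluster 18, and Akap12 at 0.0906, against 5.38. Intercalated cell markers summed to 1.15 in cluster 17, against 176.8 in cluster 14, and none of the 11 reached 0.5. Distal convoluted tubule markers summed to 18.4, against 342 in cluster 9. Thick ascending limb markers summed to 15.04, against 369 in cluster 4, and proximal tubule markers to 27.04 (16.1 without Nos3-/-), against 224 in cluster 5. Endothelial markers summed to 0.863 (0.571 without Nos3-/-), against 115 in cluster 10, fibroblast markers to 0.219 (0.106 without Nos3-/-), against 18.9 in cluster 13, and cycling markers to 0.310, against 54.8 in cluster 22. Across 7883 genes the profile of cluster 17 correlated with that of cluster 11 at r = 0.951, of cluster 8 at 0.937 and of cluster 9 at 0.894, a description over genes of clusters that share libraries.

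Sodium and potassium transport genes and their regulators had a high sum in cluster 17. The 17 genes of this group were listed after the values were seen. They include Kcnj3, the largest lead of the cluster, and regulators such as Nr3c2 (32.2) and Nedd4l (19.8). The 17 summed to 113 per 10000 in cluster 17, the highest of the 23 clusters, against 87.9 in cluster 11 and 99.6 in cluster 8. That rank was partly set by the choice of genes and is a description only. The sum ranked first in 3 libraries and second in Nos3-/-. Scnn1b, the beta subunit of ENaC (chromosome 7, 121865038 to 121918514 on the plus strand, mm10), stood at 9.96 in cluster 17, against 6.90 in cluster 8, the next highest. By library Scnn1b was 10.3 in Klf4deltaEC, 8.83 in Nos3-/-, 11.3 in Klf4deltaECNos3-/- and 9.32 in the control. Scnn1g, the gamma subunit (chromosome 7, 121734479 to 121768475 on the plus strand), stood at 5.67 in cluster 17, against 3.44 in cluster 8, with 4.96 in Klf4deltaEC, 4.49 in Nos3-/-, 8.02 in Klf4deltaECNos3-/- and 5.20 in the control. Scnn1g was above every other cluster in all 4 libraries and Scnn1b in 3, the exception being Nos3-/-, where Scnn1b was 9.59 in cluster 8. The alpha subunit gene Scnn1a did not lead, at 2.06 in cluster 17.

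The receptor side of the aldosterone pathway was present too. Nr3c2, the mineralocorticoid receptor, stood at 32.2 in cluster 17, against 24.8 in cluster 8, and was above every other cluster in all 4 libraries. Hsd11b2, the enzyme that inactivates glucocorticoids and so leaves the receptor to aldosterone, stood at 3.34 in cluster 17, 0.548 in cluster 11 and 2.89 in cluster 8. Sgk1, an aldosterone-induced kinase, stood at 1.16 in cluster 17, 0.188 in cluster 11 and 1.10 in cluster 8. Nedd4l, the ubiquitin ligase that removes ENaC from the membrane, stood at 19.8 in cluster 17, 10.4 in cluster 11 and 25.6 in cluster 8. Kcnj1, the apical potassium channel ROMK, stood at 4.04 in cluster 17, 4.08 in cluster 11 and 1.89 in cluster 8. Hsd11b2 and Sgk1 thus lay near their cluster 8 levels and Kcnj1 near its cluster 11 level.

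Calcium transport genes lay on both sides of their cluster 11 levels. The 11 listed, chosen after values were seen as for sodium, summed to 188 in cluster 17, second to the 685 of cluster 11. Trpv5, the apical calcium channel, stood at 2.20 in cluster 17, against 1.66 in cluster 11 and 0.103 in cluster 8, and was highest in cluster 17 in all 4 libraries. S100g, the small calcium-binding protein calbindin-D9k, stood at 3.58, against 4.85 in cluster 11 and 0.475 in cluster 8. Calb1, the large calbindin, stood at 7.13, against 22.6 in cluster 11 and 1.60 in cluster 8. Slc8a1, the basolateral sodium-calcium exchanger, stood at 162, against 636 in cluster 11 and 16.95 in cluster 8. Atp2b2, a plasma membrane calcium pump, stood at 4.24, above its 1.03 in cluster 11 and its 1.96 in cluster 8. The vitamin D receptor gene Vdr stood at 4.75 in cluster 17, 9.98 in cluster 11 and 0.716 in cluster 8.

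Water transport genes were below cluster 8: the 9 listed summed to 3.61 in cluster 17, against 13.6 in cluster 8. Aqp2, the vasopressin-regulated water channel, stood at 2.47 in cluster 17, 0.293 in cluster 11 and 6.67 in cluster 8. Aqp3, a basolateral water channel, stood at 0.544 in cluster 17, 0.0961 in cluster 11 and 1.68 in cluster 8. Aqp4, the other basolateral water channel of principal cells, stood at 0.0563 in cluster 17, under the level of 3 UMIs in every library, against 3.37 in cluster 8. Avpr2, the vasopressin receptor, stood at 0.201, against 0.602 in cluster 8, and Fxyd4, a regulator of the sodium pump, at 0.573, against 4.06. Elf5, a transcription factor of principal cells, stood at 0.0184 in cluster 17 (0.00944 without Klf4deltaECNos3-/-), against 0.852 in cluster 8.

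Genes of the thiazide-sensitive segment upstream were low: the 9 listed summed to 27.3 in cluster 17, against 322 in cluster 9. Slc12a3, the sodium chloride transporter blocked by thiazides, stood at 1.59 in cluster 17, against 85.5 in cluster 11, 2.05 in cluster 8 and 192 in cluster 9. Its cluster 17 level was 3.75 in Nos3-/-, against 0.608 in the control, and the mean without Nos3-/- was 0.869. Trpm6, a magnesium channel of the same segment, stood at 0.822, against 12.6 in cluster 11 and 26.3 in cluster 9. Cluster 17 and cluster 11 therefore differed sharply in these genes while sharing Trpv5, S100g and Emx1. Emx1, a homeobox gene of the distal nephron, stood at 2.15 in cluster 17, 2.46 in cluster 11 and 0.293 in cluster 8.

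Some acid and ammonia transport genes were present without intercalated cell markers, and the 11 listed summed to 13.7 in cluster 17, against 157 in cluster 14. Rhcg, an ammonia channel, stood at 8.36 in cluster 17, against 5.90 in cluster 16, the next highest, and was highest in cluster 17 in all 4 libraries. Rhbg, the basolateral ammonia channel, stood at 1.44 in cluster 17, 1.54 in cluster 16, 0.507 in cluster 11 and 0.217 in cluster 8. Atp4a, the catalytic subunit of a proton-potassium pump best known from the stomach, stood at 1.64, above its 0.815 in cluster 19. Atp6v1b1, a proton pump subunit gene, stood at 1.504 in cluster 17. It is among the transport genes listed here and not among the fixed intercalated markers. Several of the fixed intercalated markers were at or near 0 in cluster 17: Slc4a1 at 0.0157, Foxi1 at 0.0296, Kit at 0.0736 (0.0378 without Nos3-/-) and Atp6v1g3 at 0.0919. Slc4a9 stood at 0.213 and Slc26a4, the chloride-bicarbonate exchanger pendrin, at 0.310. The Slc26a4 level in Nos3-/- was 0.751, and the mean without Nos3-/- was 0.163.

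**Figure D2:**
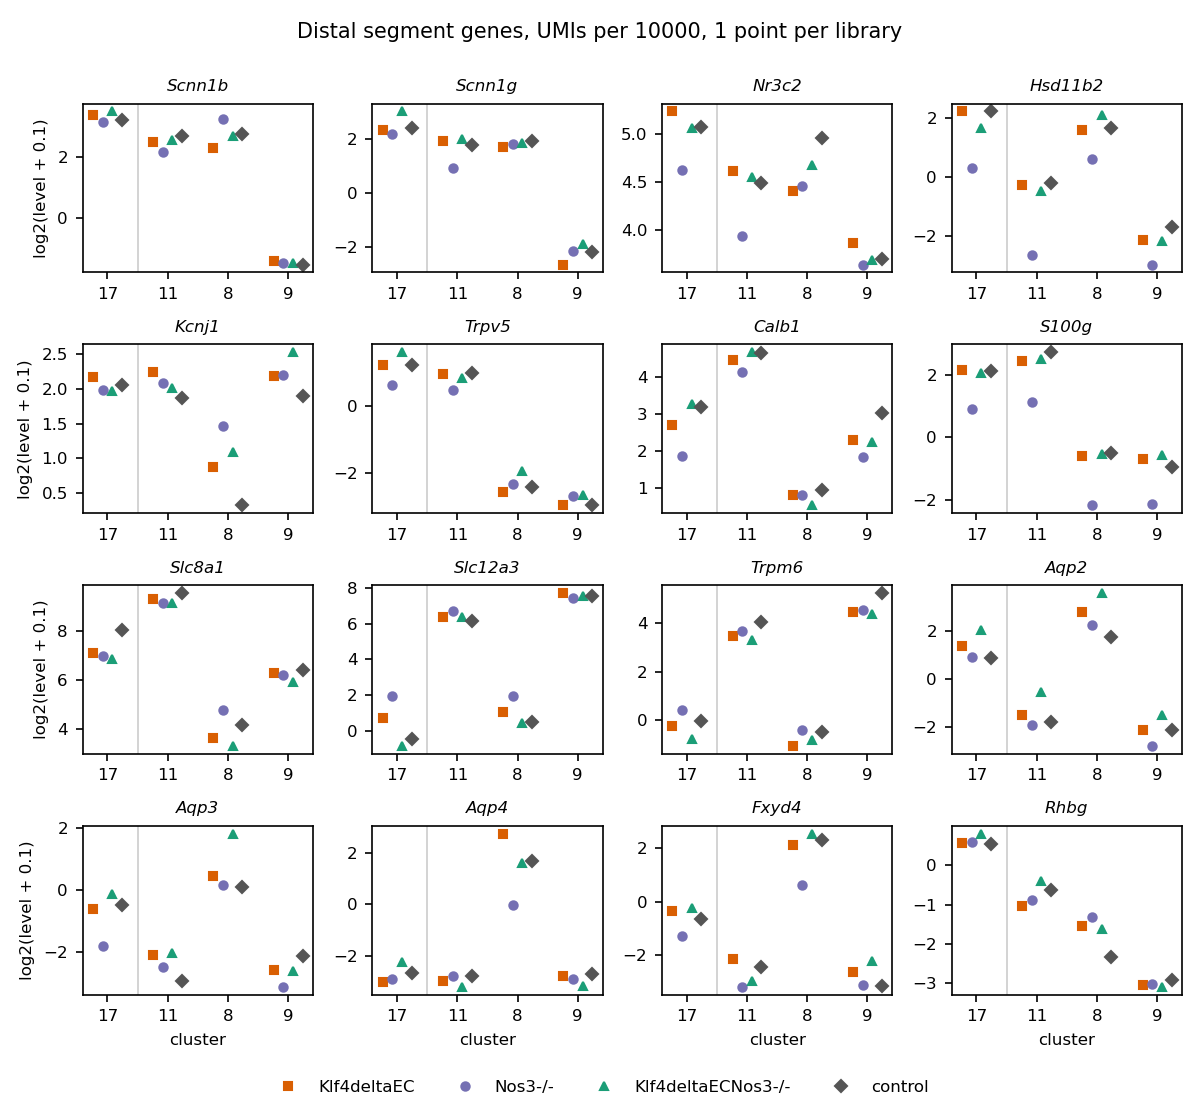
Each panel is a gene, with log2(level + 0.1) in UMIs per 10000 on the vertical axis and clusters 17, 11, 8 and 9 along the horizontal; each point is 1 library. Scnn1b and Trpv5 in cluster 17 sit above clusters 11 and 8 in every library except Scnn1b in Nos3-/- (9.59 in cluster 8), Slc12a3 in cluster 17 sits with cluster 8 far below clusters 11 and 9, and Aqp4 sits near the floor outside cluster 8.

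Placing all genes on a scale between the 2 neighbours showed cluster 17 about midway. Of 726 genes that differed 2-fold or more between clusters 8 and 11, 608 (83.7%) had a cluster 17 level between them, 62 lay beyond cluster 11 and 56 beyond cluster 8. On the log2 scale, with cluster 8 at 0% and cluster 11 at 100%, the median position was 56.1% and the lower and upper quartiles were 32.3% and 77.8%. By library the median position was 60.9% in Klf4deltaEC, 49.1% in Nos3-/-, 53.4% in Klf4deltaECNos3-/- and 59.7% in the control. Other clusters were not placed on this scale, so the 83.7% and the median positions have no background to be read against. The table holds averages over nuclei, so nuclei that carry both gene sets, a mix of nuclei that carry 1 set each and doublets cannot be told apart from these positions.

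A set of 25 genes stood 2-fold or more above both neighbours, out of 4397 compared, and 24 of them were above both in all 4 libraries, Gm15581 in 3. The set included 4 transporter genes named above or below (Kcnj3, Kcne1, Atp4a and Rhbg), Slc9a4, a sodium-proton exchanger, at 0.674 in cluster 17 against 0.120 in cluster 11 and 0.175 in cluster 8, and Atp2b2. It also held Cav1, the caveolar coat protein, Ptprd, a receptor phosphatase, at 18.6 in cluster 17 against 8.75 in cluster 11 and 6.02 in cluster 8, and Gpc5, a cell surface proteoglycan, at 17.5 against 2.00 in cluster 11 and 8.56 in cluster 8. Below both neighbours stood 3 genes, Pde10a, Prkd1 and Esrrb. Esrrb, an orphan nuclear receptor, stood at 0.178 in cluster 17 (0.113 without Nos3-/-), against 3.30 in cluster 11 and 0.497 in cluster 8, while its relative Esrrg stood at 55.2 in cluster 17 and 58.9 in cluster 11.

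Few genes set cluster 17 apart from all other clusters at once. Of 3832 genes at 0.5 per 10000 or more, 225 (5.87%) were highest in cluster 17, 30 of them in all 4 libraries, and 10 (0.261%) led every other cluster by 2-fold or more. By the number of 2-fold leads cluster 17 came 16th of the 23 clusters. Cluster 11 was the runner-up for 55 of the 225 and cluster 8 for 49. These genes took part in the clustering, so their leads are a description and no test.

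The gene with the largest lead was Kcnj3, a G protein-gated potassium channel subunit (chromosome 2, 55435970 to 55598145 on the plus strand). It stood at 0.595 in cluster 17, against 0.0956 in cluster 8. By library Kcnj3 was 0.884 (0.600 to 1.25) in Klf4deltaEC, 0.235 (0.0883 to 0.503) in Nos3-/-, 0.881 (0.529 to 1.38) in Klf4deltaECNos3-/- and 0.380 (0.197 to 0.661) in the control. Kcne1, an accessory subunit of voltage-gated potassium channels, stood at 1.73, against 0.502 in cluster 8, with 1.65 in Klf4deltaEC, 2.21 in Nos3-/-, 1.25 in Klf4deltaECNos3-/- and 1.81 in the control. Both were highest in cluster 17 in every library.

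The same held for Tbck, which encodes a protein with kinase-like and TBC domains (chromosome 3, 132684144 to 132841688 on the plus strand). It stood at 22.1 in cluster 17, against 7.20 in cluster 8, and by library at 25.0 in Klf4deltaEC, 15.01 in Nos3-/-, 26.3 in Klf4deltaECNos3-/- and 21.9 in the control. Egfem1 (chromosome 3, 29082023 to 29691209 on the plus strand) was at 23.7, against 10.4 in cluster 11. Egfem1 had the largest lead over the median of the other clusters, 6.05 on the log2 scale, and in Nos3-/- its 13.8 stood close to the 13.3 of cluster 11. Tmem178 stood at 8.08, against 2.71 in cluster 11.

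Further leading genes were Prr5l at 1.72, Cav1 at 2.19, Ttn, which encodes the muscle protein titin, at 1.01, the secreted protease gene Adamts16 at 3.399, Plppr1 at 7.63 and the adhesion gene Sdk1 at 13.4. The 15 genes of highest UMI level included Malat1, a nuclear RNA, at 908, Phactr1 at 85.0, the transcription factor genes Mecom at 55.3 and Glis3 at 34.6, and Pkhd1, the gene of fibrocystin, at 43.3. Of the 25 largest leads, 19 were in genes highest in cluster 17 in all 4 libraries. Over the median of the other clusters the list opened with Egfem1, Kif26b, Phactr1 and Rhcg, and ENaC's Scnn1b and Scnn1g, Trpv5 and Slc8a1 were among its first 15. Kif26b was at 8.79 in cluster 17 and 0.588 in cluster 11, and in Nos3-/- its 11.4 in cluster 8 was above the 9.08 of cluster 17.

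**Figure D3:**
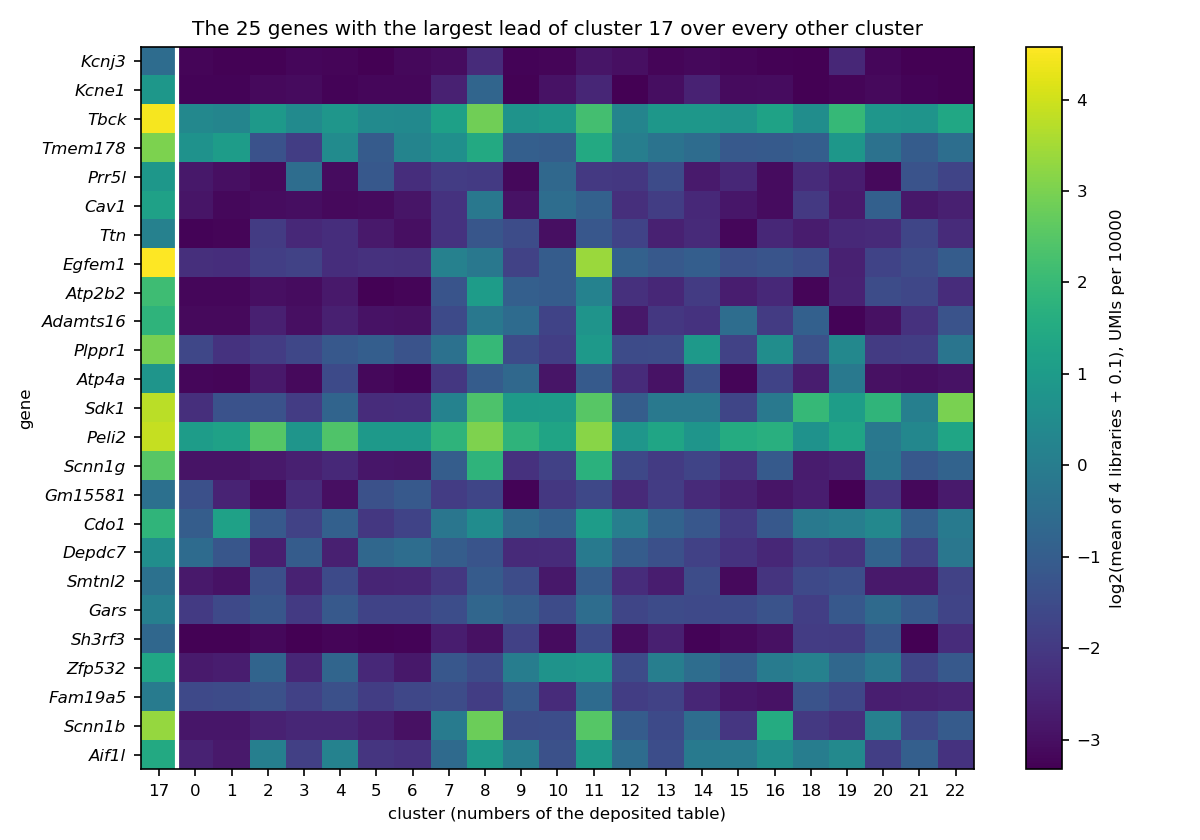
Rows are the 25 genes with the largest lead of cluster 17 and columns the 23 clusters, cluster 17 at the left; colour gives log2(mean of 4 libraries + 0.1) in UMIs per 10000. Clusters 8 and 11 are the brightest other columns for most rows, as for Scnn1b (6.90 in cluster 8) and Egfem1 (10.4 in cluster 11).

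Between libraries, genes of cluster 17 entered a comparison where the higher library reached 0.5 per 10000, and were counted where the log2 ratio of (level + 0.1) was at least 1 in size, a 2-fold difference on that scale. This scale understates the ratio of low genes. The 3 comparisons over the control share that library, and the 2 others share libraries with them. For genes past the limit, the percent that differed the same way in the median of the other clusters is also given. That percent was not computed over all genes entered, so it has no background to be read against.

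The library labelled Klf4deltaEC differed least from the control. Of 4193 genes, 78 (1.86%) were higher and 66 (1.57%) lower by 2-fold or more, with a median log2 ratio of -0.02, and 12.5% of those genes differed the same way by 0.5 or more in the median of the other 22 clusters. None of the 6 connecting tubule markers and none of the 8 principal cell markers that entered passed the limit, and their median log2 ratios were 0.03 and -0.03. The 10 mitochondrially encoded genes that entered had a median of -0.16 and none passed the limit.

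The highest ratios rested on few UMIs in the control. Sorbs2os, an antisense transcript of Sorbs2, stood at 1.43 in Klf4deltaEC against 0.229 in the control with a log2 ratio of 2.22 (1.52 to 4.00). Lrrc4 stood at 1.14 in Klf4deltaEC against 0.195 in the control, and Coq10b at 0.521 in Klf4deltaEC against 0.0556 in the control, with a log2 ratio of 2.00 (1.08 to 6.65). Whether reads were counted by strand is unstated in the labels, so Sorbs2os and Sorbs2 cannot be told apart where they overlap. The other highest ratios, from 1.69 to 2.28, were those of Gm42836, 2310040G07Rik, C1d, Rassf9, Gm13269, Lysmd4 and 4933417O13Rik.

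At the low end Loxl2, a lysyl oxidase that cross-links collagen, stood at 0.0307 in Klf4deltaEC against 0.560 in the control with a log2 ratio of -2.34 (-9.25 to -1.59). The median of the other clusters for Loxl2 was -2.00, so this difference was not limited to cluster 17. Gm16867 had 0 UMIs in Klf4deltaEC and 0.564 per 10000 in the control, at least 6.58-fold lower, and its median in the other clusters was -2.23. Inpp5a, an inositol phosphate phosphatase, stood at 0.462 in Klf4deltaEC against 1.69 in the control with a log2 ratio of -1.67 (-2.77 to -1.05), where the other clusters had a median of 0.04. The other lowest ratios, from -1.62 to -1.42, included those of Fam214b, Zfp771, Stt3a, Ugt8a, Ankrd16 and Heatr5b.

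Slc8a1, singled out after its values were seen, was highest in the control. Slc8a1 stood at 137 (133 to 141) in Klf4deltaEC, 128 (123 to 132) in Nos3-/- and 118 (113 to 122) in Klf4deltaECNos3-/-, against 266 (260 to 271) in the control, and no intervals of the control overlapped the others. The log2 ratios over the control were -0.96 in Klf4deltaEC, -1.06 in Nos3-/- and -1.17 in Klf4deltaECNos3-/-. In cluster 11 the Slc8a1 ratios over the control were -0.25 in Klf4deltaEC, -0.43 in Nos3-/- and -0.41 in Klf4deltaECNos3-/-. Slc8a1 makes up most of the sum of the connecting tubule markers, which was 152 in Klf4deltaEC, 136 in Nos3-/- and 137 in Klf4deltaECNos3-/-, against 283 in the control.

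The library labelled Nos3-/- differed far more from the control. Of 4388 genes, 392 (8.93%) were higher and 196 (4.47%) lower by 2-fold or more, with a median log2 ratio of 0.02, and 49.0% of them differed the same way by 0.5 or more in the median of the other clusters. Of the 14 proximal tubule markers 13 entered, all above 0, and 12 passed the limit, with a median of 1.79. Some, such as Hnf4a, entered only through Nos3-/- and could only come out higher. Aqp1 did not enter and was not higher, at 0.127 in Nos3-/- against a mean of 0.355 without that library. The sum of all 14 was 59.8 in Nos3-/-, against 16.6 in the control. Lrp2, the proximal tubule endocytic receptor megalin, stood at 9.87 in Nos3-/- against 1.18 in the control with a log2 ratio of 2.96 (2.57 to 3.59). The Lrp2 ratio was 2.33 in cluster 8 and 2.30 in cluster 11. The other highest ratios, from 2.86 to 3.39, included those of Arhgap26, Gm20400, Dnajc6, Hnf4g, Galnt14, Tinag, Slc7a7 and Gcnt2.

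Most mitochondrially encoded genes, and some markers of the cluster's own segments, passed the limit as lower in Nos3-/-. Of 10 mitochondrially encoded genes 8 passed the limit as lower, with a median of -1.37, and mt-Atp6 stood at 1.51 in Nos3-/- against 8.49 in the control. Connecting tubule markers passed the limit as lower in 4 of 6, with a median of -1.13. Calb1 stood at 3.53 in Nos3-/- against 9.03 in the control with a log2 ratio of -1.33 (-1.71 to -1.02), and S100g at 1.76 in Nos3-/- against 4.19 in the control, a ratio of -1.21 (-1.77 to -0.76). Klk1, a kallikrein whose close relatives can share reads, had a ratio of -1.63. In the median of the other clusters the ratio was -1.36 for S100g and -1.11 for Klk1 but 0.91 for Calb1, so the lower S100g and Klk1 were not limited to cluster 17. Principal cell markers passed as lower in 2 of 8, with 2 of the 8 above 0 and a median of -0.42. The 2 that passed were Hsd11b2, at 1.14 in Nos3-/- against 4.57 in the control, and Aqp3, at 0.186 in Nos3-/- against 0.619 in the control. Medians in the other clusters were -0.98 for Hsd11b2 and -0.33 for Aqp3. Klk1, Aqp3 and Fxyd4 were below 0.5 in Nos3-/-, so these 3 could only come out lower. Scnn1b and Scnn1g had ratios of -0.08 and -0.21. The part that the higher proximal tubule level, the lower mitochondrial level or the lower depth of the Nos3-/- library had in these differences was not tested.

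Among the lowest ratios in Nos3-/- were those of Oprm1 and Spock3, whose mean levels are highest in clusters 17 and 8. Oprm1, the mu opioid receptor (chromosome 10, 6758506 to 7038198 on the plus strand), had a level of 0.270 (0.110 to 0.551) in Nos3-/-, against 2.21 (1.73 to 2.79) in the control with a log2 ratio of -2.64. It stood at 4.32 in Klf4deltaEC and 2.14 in Klf4deltaECNos3-/-, so the Nos3-/- value lay apart from all others. Oprm1 had ratios of -2.57 in cluster 8 and -3.30 in cluster 11. Spock3, a secreted proteoglycan gene, stood at 0.288 (0.122 to 0.575) in Nos3-/-, against 1.96 (1.501 to 2.50) in the control with a log2 ratio of -2.41. Spock3 had ratios of 0.18 in cluster 8, 0.69 in cluster 11 and 0.17 in the median of the other clusters. The remaining lowest ratios, from -2.95 to -2.31, were those of Gm48094, Rps12-ps3 (0 UMIs in Nos3-/-, at least 4.65-fold lower), Mettl23, Gm36388, mt-Atp6, Gm35188, Kap and Fth1.

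The library labelled Klf4deltaECNos3-/-, set against the control, gave 188 (4.32%) higher and 116 (2.67%) lower genes of 4347, with a median log2 ratio of 0.04. Once the median of the other clusters was subtracted the split was 133 higher and 137 lower. In that median 7.89% of the genes past the limit differed the same way by 0.5 or more, and cluster 17 has 70 nuclei in this library. Of the 15 immediate early genes, which respond to stimuli within minutes, 3 entered, with a median log2 ratio of 1.53. All 3 were below 0.5 in the control, so they entered only through Klf4deltaECNos3-/- and could only come out higher. Klf6 stood at 1.05 in Klf4deltaECNos3-/- against 0.299 in the control, Btg2 at 0.796 in Klf4deltaECNos3-/- against 0.333 in the control and Ier3 at 0.683 in Klf4deltaECNos3-/- against 0.138 in the control. The summed level of the 15 was 4.97 in Klf4deltaECNos3-/-, against 2.52 in Klf4deltaEC, 1.89 in Nos3-/- and 2.28 in the control.

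Among the highest ratios was that of Nr4a3, an orphan nuclear receptor, which stood at 0.512 in Klf4deltaECNos3-/- and had 0 UMIs in the control, at least 5.47-fold higher. It had 0 UMIs in the other two libraries as well. Coq10b had a ratio of 2.95 (2.20 to 7.71), Irs2, an adaptor of the insulin receptor, 2.11 (1.16 to 5.58) and Csrnp2 2.05 (1.11 to 4.94). Ypel2 stood at 11.4 (10.0 to 12.9) in Klf4deltaECNos3-/-, against 2.59 (2.06 to 3.21) in the control with a log2 ratio of 2.10 in cluster 17 and of 1.05 in cluster 8. The other highest ratios included those of Pde10a, Scg5, Gm42031 and Zbtb10, and the lowest, from -2.05 to -1.78, those of Mtrf1l, Prkd3, Impa2, Med17, Rnf24, Slc16a12, Fstl1, Dbnl, Ndufa6 and St3gal2.

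Tmem178, a leading gene of the cluster, and Kitl, which is not one, stood apart in Klf4deltaECNos3-/-. Tmem178 was at 15.4 (13.8 to 17.1) in Klf4deltaECNos3-/-, 4.88 (4.18 to 5.67) in Klf4deltaEC and 5.42 (4.57 to 6.38) in Nos3-/-, against 6.63 (5.77 to 7.59) in the control. Its log2 ratio over the control was 1.20 in cluster 17, 0.61 in cluster 8 and 0.33 in cluster 11. Kitl, the ligand of the receptor Kit, stood at 6.85 (5.79 to 8.05) in Klf4deltaECNos3-/-, 2.61 in Klf4deltaEC and 2.42 in Nos3-/-, against 2.68 (2.14 to 3.31) in the control. The Kitl ratio over the control was 1.32 in cluster 17, -0.03 in cluster 8 and 0.03 in cluster 11. For both genes the Klf4deltaECNos3-/- interval lay above the other 3 libraries. Tmem178 and Kitl were singled out after their values were seen.

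One principal cell marker passed the limit in this library. Aqp2 stood at 3.94 in Klf4deltaECNos3-/-, against 1.70 in the control with a log2 ratio of 1.16 (0.70 to 1.73), and it was the only one of the 8 past the limit, with 3 of the 8 below 0 and a median of 0.32. The Aqp2 ratio was 1.86 in cluster 8 and 1.23 in cluster 11. Scnn1g, which did not pass, stood at 8.02 in Klf4deltaECNos3-/- against 5.20 in the control, a ratio of 0.62 (0.31 to 0.94). Of the 6 connecting tubule markers 1 passed the limit, Slc8a1, and the median of the 6 was 0.01.

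Set against Nos3-/-, the library labelled Klf4deltaECNos3-/- gave 353 (7.84%) higher and 450 (10.0%) lower genes of 4501, with a median log2 ratio of 0.04. The proximal tubule markers, of which 14 entered, were lower past the limit in 11 and had a median of -1.85. Some, such as Cubn and Hnf4a, reached 0.5 only in Nos3-/- and could only come out lower. Aqp1 reached 0.5 only in Klf4deltaECNos3-/- and could only come out higher. Of 10 mitochondrially encoded genes, 6 were higher past the limit, with a median of 1.05. Connecting tubule markers passed as higher in 3 of 6 (median 1.07) and principal cell markers in 4 of 8 (median 0.95). Among those that passed, Klk1, Aqp3 and Fxyd4 were below 0.5 in Nos3-/-, so they could only come out higher. Calb1 stood at 9.56 in Klf4deltaECNos3-/- against 3.53 in Nos3-/-, and Hsd11b2 at 3.06 in Klf4deltaECNos3-/- against 1.14 in Nos3-/-. This comparison and the one of Nos3-/- over the control share the Nos3-/- library, and 46.3% of its genes past the limit differed the same way in the median of the other clusters.

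The highest ratios over Nos3-/- were led by Gm48094 at 3.22 (2.37 to 11.2) and included Gm42031, Rpl9-ps6, Mettl23, Gm26835, Timm13 and the kinase gene Camk2b. Oprm1 stood at 2.14 in Klf4deltaECNos3-/- against 0.270 in Nos3-/-, a ratio of 2.60. Nr4a3 was at least 4.55-fold higher. At the low end, Gm42397 stood at 0.432 in Klf4deltaECNos3-/- against 10.2 in Nos3-/-, a ratio of -4.27 (-5.68 to -3.62) that was -3.71 in cluster 8 and -3.97 in cluster 11. St8sia1, a sialyltransferase, had 0 UMIs in Klf4deltaECNos3-/- and 1.42 per 10000 in Nos3-/-, at least 10.2-fold lower. Among the next, from -3.73 to -3.33, were Gm37245, Arhgap26, Hnf4aos, Nhs, Auts2, Fgf1 and Itgb8.

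Set against Klf4deltaEC, the library labelled Klf4deltaECNos3-/- gave 187 (4.36%) higher and 105 (2.45%) lower genes of 4288, with a median log2 ratio of 0.07. Subtracting the median of the other clusters turned the split into 135 higher and 122 lower. None of the 6 connecting tubule and 8 principal cell markers passed the limit, with medians of 0.14 and 0.13. The 3 immediate early genes that entered reached 0.5 only in Klf4deltaECNos3-/-, so they could only come out higher, and their median was 1.45. Npas2, a transcription factor of the circadian clock, stood at 0.930 in Klf4deltaECNos3-/- against 0.135 in Klf4deltaEC, a ratio of 2.13. Sik1, a salt-inducible kinase, stood at 0.533 in Klf4deltaECNos3-/- against 0.0475 in Klf4deltaEC, a ratio of 2.10 (1.17 to 7.14). The other highest ratios over Klf4deltaEC included those of 9130230L23Rik, Nr4a3 (at least 5.98-fold), Nuak1, Csrnp2, Tob2, Mbp and Atp13a1. The lowest, from -2.36 to -1.82, were those of 4933417O13Rik, Ndufa6, Gm10848, Sorbs2os, 2310040G07Rik, Ccdc66, Selenos, Aste1, Gm14508 and 9330175M20Rik.

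**Figure D4:**
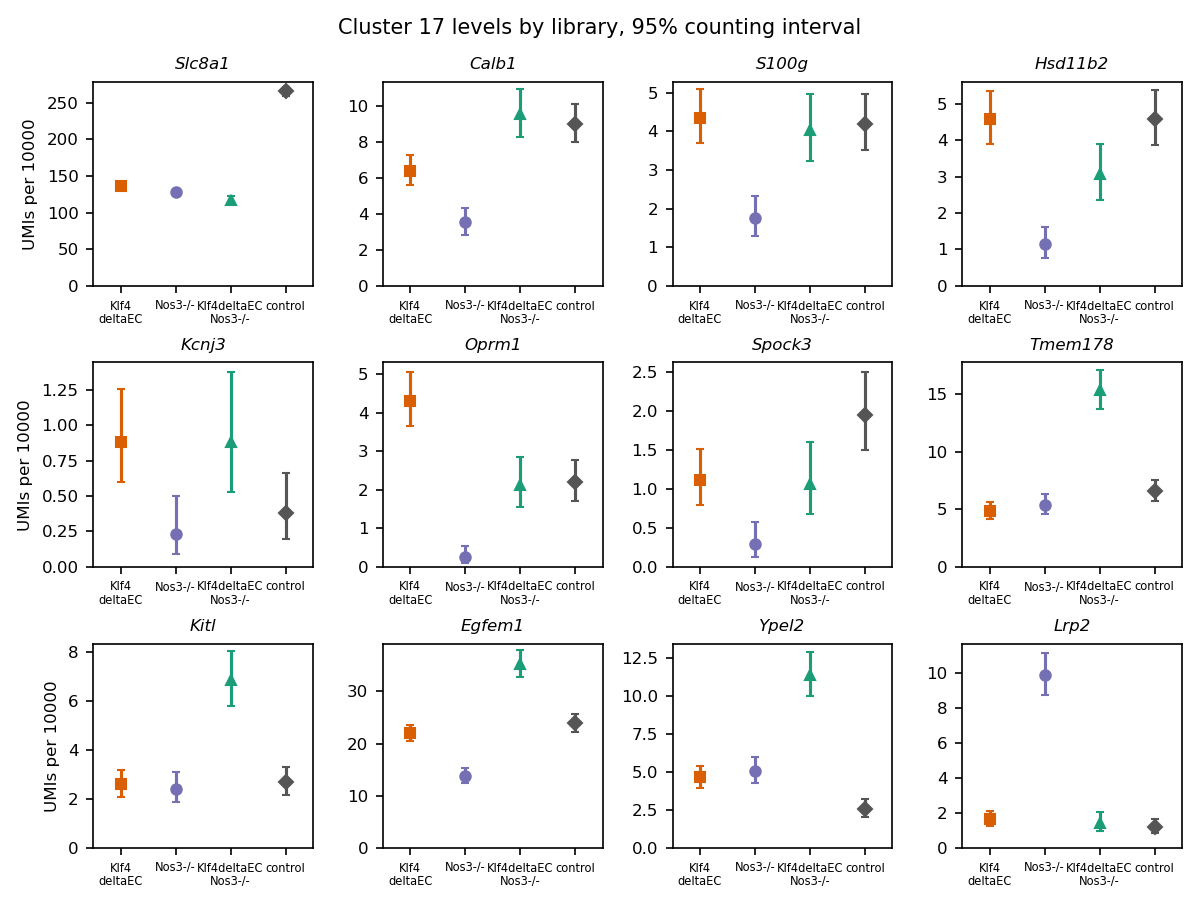
Points give the cluster 17 level of 12 genes in UMIs per 10000 in each library, from left Klf4deltaEC, Nos3-/-, Klf4deltaECNos3-/- and control, with 95% counting intervals as bars; vertical scales differ. Slc8a1 is highest in the control (266), Calb1, S100g, Hsd11b2 and Oprm1 are lowest in Nos3-/-, and Tmem178, Kitl and Ypel2 are highest in Klf4deltaECNos3-/-.

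The number of genes past the limit in cluster 17 can be set beside clusters 11 and 8. For Klf4deltaEC over the control, cluster 11 gave 15 higher and 7 lower of 3792 genes entered, and cluster 8 gave 133 and 84 of 4136. For Nos3-/- over the control, cluster 11 gave 248 and 103 of 3955 and cluster 8 gave 358 and 235 of 4347. For Klf4deltaECNos3-/- over the control, cluster 11 gave 34 and 26 of 3951 and cluster 8 gave 95 and 34 of 4233. Both were fewer than the 188 and 116 of 4347 in cluster 17. Cluster 17 had 471 nuclei in all, cluster 11 had 791 and cluster 8 had 1126, so counting error in cluster 17 is larger, and the part of that error in its counts was not tested.

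**Figure D5:**
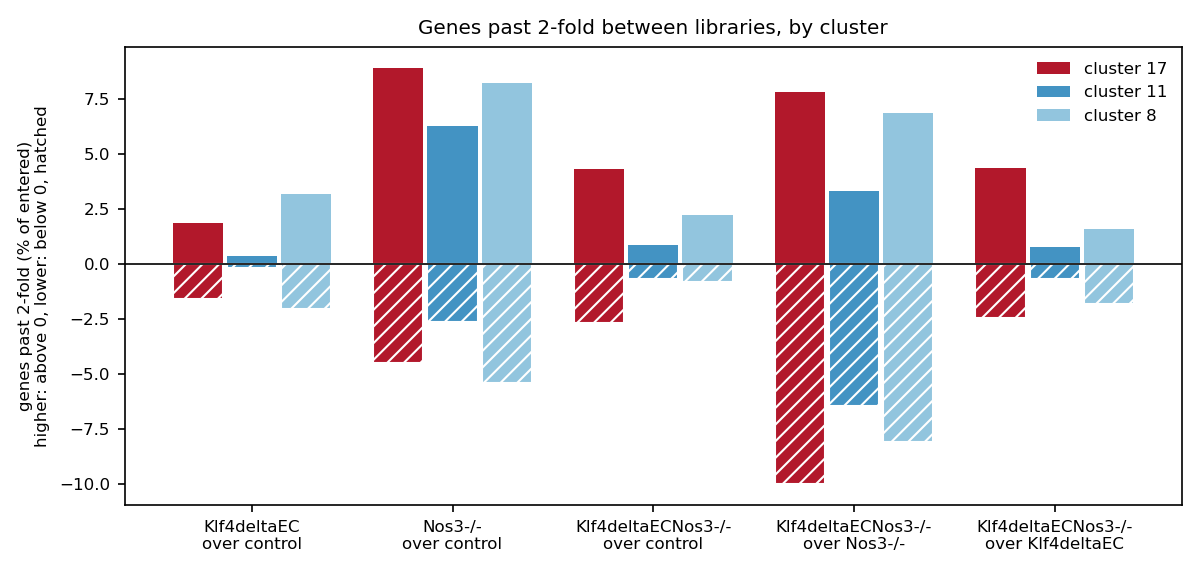
For each of the 5 comparisons, bars give the percent of genes entered that were 2-fold or more higher (above 0) or lower (below 0, hatched) in clusters 17, 11 and 8. In cluster 17 the higher share runs from 1.86% for Klf4deltaEC over the control to 8.93% for Nos3-/- over the control.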

How the data were processed

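The file deposited by the authors gives 1 normalized signal value per gene and column, over 21046 genes and 92 columns (23 clusters in each of 4 libraries). Every column sums to 10000, so the authors' signal is read as a mean over nuclei of UMIs per 10000 UMIs. Cell Ranger, Seurat and the mm10 build were used per the submitters' processing notes, which give no versions. The sources used here do not state how nuclei were clustered, filtered and cleared of doublets, and barcodes shared between libraries could not be counted in a table of averages. All columns were matched to libraries by title, and 0 were left over.

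Nuclei numbers and depth are inferred. A gene with 1 UMI in 1 nucleus gives a value whose reciprocal is a multiple of the nuclei number, and the largest number dividing at least 85% of such reciprocals was taken (relative tolerance 3e-13); it divided at least 98.5% in cluster 17. Effective UMIs are nuclei times the harmonic mean total. Levels have exact Poisson and ratios (without the pseudocount of 0.1) exact binomial 95% intervals, which cover counting error only and no spread between nuclei, mice or preparations. No p-value is given, since each genotype has 1 library.

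Genes entered at 0.5 per 10000 and were counted at a log2 ratio of 1. Named genes are the 25 largest leads over any other cluster, the 15 largest over the median cluster, the 15 highest levels, the 10 highest and 10 lowest ratios per comparison, list members and both targeted genes. A few genes that this rule names are not reported here. The members and lists were chosen with earlier results of these data known; the transport lists, Tmem178, Kitl and other library-variable genes were chosen after their values were seen. Alternatives were the pseudocount, the filter, median-ratio rescaling, subtraction of the other clusters' median, leaving out mitochondrially encoded genes or a library, and the interval. Scripts were tested on simulated data. Coordinates are GENCODE on mm10. Python 3.11.15, pandas 2.3.3, numpy 2.4.6, SciPy 1.17.1 and matplotlib 3.10.9 were used.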

Additional observations from a re-analysis of the deposited data

Results flagged for a closer look

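In 3 genes of cluster 17 a label went with opposite differences on the 2 backgrounds, each past 2-fold; the difference between backgrounds was not tested, since each genotype has 1 library. Npas2 had a log2 ratio of -1.39 for Klf4deltaEC over the control and 1.21 for Klf4deltaECNos3-/- over Nos3-/-. The gene 9130230L23Rik had -1.11 for Klf4deltaEC over the control and 1.504 for Klf4deltaECNos3-/- over Nos3-/-; its levels were 0.257 in Klf4deltaEC, 0.701 in Nos3-/- and 2.17 in Klf4deltaECNos3-/-, against 0.671 in the control. Ankrd16 had -1.42 for Klf4deltaEC over the control and 1.60 for Klf4deltaECNos3-/- over Nos3-/-, and along the Nos3 label -1.13 for Nos3-/- over the control and 1.89 for Klf4deltaECNos3-/- over Klf4deltaEC. Ankrd16 rested on 4.83 effective UMIs in Klf4deltaEC and 5.09 in Nos3-/-.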

How the results depend on the processing

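Counts of genes past 2-fold follow in the order Klf4deltaEC, Nos3-/- and Klf4deltaECNos3-/- over the control, then Klf4deltaECNos3-/- over Nos3-/- and over Klf4deltaEC, where 144, 588, 304, 803 and 292 were reported. A pseudocount of 0.5 gave 11, 234, 52, 319 and 46, and a filter at 2 per 10000 gave 8, 163, 39, 199 and 38. With no filter, over all 21046 genes, the counts were 670, 1535, 1101, 2014 and 1149. The filters also change how many genes are compared, so these are counts and not shares. A pseudocount of 0.02 gave 220 for Klf4deltaEC over the control. Subtracting the median of the other clusters gave 350 for Nos3-/- over the control and 518 for Klf4deltaECNos3-/- over Nos3-/-, and turned Mettl23 to 0.0515 and Gm35188 to 0.00843 for Nos3-/- over the control. The 225 leading genes became 82 with a filter at 2 and 30 when each library had to lead alone, and ranged from 209 to 259 with a library left out; the 10 at 2-fold became 6 with either a pseudocount of 0.5 or the filter at 2, 2 with each library alone, and 8 to 11 with a library left out. The rank of the intercalated marker sum, 10, ranged from 9 to 16 with a library left out. Over nuclei outside the proximal tubule clusters the share of cluster 17 was 3.60% in Klf4deltaEC, 4.76% in Nos3-/- and 2.11% in Klf4deltaECNos3-/-, against 2.99% in the control. The cause of these changes was not tested beyond the fewer or more genes that each filter lets in. Rescaling moved the median of all genes by under 0.1, and gave 160 higher and 133 lower for Klf4deltaECNos3-/- over Klf4deltaEC. The median position between clusters 8 and 11, an alternative chosen after seeing the data, ranged from 54.0% to 59.2% with a library left out. Genes of a few UMIs, such as Gm42836 and Mtrf1l, have wide intervals at this depth. Means of cluster 17 without each library were likewise added after seeing the data and stand beside each printed mean that one library moves strongly. No paired analysis was possible because each genotype has 1 library.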
